A study of Mus musculus with 36 samples.

Results

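The genes described here are the ligands and receptors of axon guidance: ephrins, Eph receptors, semaphorins of classes 3 to 7, plexins, neuropilins, Slits, Robos, netrins and Unc5 receptors. They were picked by gene symbol from the probe sets that the platform annotation pairs with a single gene on chips A and B of an Affymetrix mouse array set, taking the brightest probe set of each gene. The rule found 61 of 13674 genes. Of these, 59 are guidance genes, while Unc50, a Golgi protein, and Plxna4os1, an antisense transcript, match by spelling only. A brightness filter kept, on each chip, the brightest 60% of probe sets by mean log2 signal, and 39 of the 61 passed it, against 9817 of all genes. The 39 are 38 guidance genes and Unc50, which is included in every count over 39.

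The cells were mouse embryonic stem cells carrying an Oct4:eGFP reporter, which every group shares. Controls stayed in medium with 1000 U/mL LIF, the cytokine that keeps these cells undifferentiated, and were collected 2 days after plating. The other arms had no LIF and were collected after 1, 3 or 5 days, or had retinoic acid (RA) at 0.1 uM in place of LIF and were collected after 1 or 2 days, and were sorted by eGFP into high, medium and low gates. A library is one RNA sample hybridised to both chips, and 18 libraries gave 36 arrays. There were 3 controls (2 high and 1 medium) and 4 libraries of day 1 without LIF (2 high, 1 medium and 1 low). Day 3 without LIF, day 5 without LIF and day 1 with RA had 3 libraries each, 1 per gate, and day 2 with RA had 2 (medium and low). Below, values of an arm are given in the order high, medium, low, with high replicates 1 and 2 first where there are 2. Stock cultures grew on embryonic fibroblast feeders and were moved to gelatin, plating density was lower for the longer arms, and the RNA went through 2 rounds of amplification. Because nearly every gate of an arm has 1 library, gates stand in as replicates, and since no label says that libraries are separate cultures, p-values measure only the spread among them, which may be technical.

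Scanning took place on 4 days, and the controls shared a day with no library except 1, labelled day 1 without LIF, high gate, replicate 2. That library stood apart from its arm. Across probe sets it correlated at a mean of 0.967 with libraries of day 1 with RA on chip A, above its 0.943 with its own arm, and at 0.932 against 0.887 on chip B. It is called the doubted library here, it stays under its label, and counts are repeated without it. Because it was singled out from these same data, results without it are no separate support. Pou5f1, the gene of Oct4, was at 2823, 2388 and 2458 in controls and at 900.5, 663 and 527 at day 5 without LIF. Array medians ran from 37.7 to 48.8 on chip A and from 65.5 to 76.3 on chip B, and precision is limited by how few arrays there are. Changes are limma differences of log2(signal + pseudocount), the pseudocount being 4 on chip A and 7 on chip B, given ± standard error. A gene passed the test with a Benjamini-Hochberg adjusted p under 0.05. Folds are on that same scale, which understates the change of dim genes.

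Guidance molecules steer growing axons and migrating cells. Slits act through Robo receptors, netrins through Dcc and Unc5 receptors, and semaphorins through plexins, with neuropilins as co-receptors for the secreted class 3. Ephrins are bound to the cell surface and signal through Eph receptors on neighbouring cells, and also back into the cell that carries them. Before any axon forms, the same families sort cells and set tissue boundaries in the early embryo.

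The start regions of 3 genes are shown: Slit3, which had the largest rise among the members, Efnb1, an ephrin that rose with RA, and Epha2, a receptor that rose with RA and fell at day 5 without LIF. The sequences are from RefSeq on build GRCm38.p6 and run from 250 bases before to 50 bases after the annotated start, 5′ to 3′, all on the plus strand: Slit3 at chr11:35121206-35121505, Efnb1 at chrX:99135811-99136110 and Epha2 at chr4:141300971-141301270. Capitals mark AGGTCA (the half-site of nuclear receptors, among them the RA receptors), GGGCGG (the GC box) and TGACGTCA (the cAMP response element) on either strand. Genes and motifs were chosen after results were seen, the motifs from 18 searched.
Slit3: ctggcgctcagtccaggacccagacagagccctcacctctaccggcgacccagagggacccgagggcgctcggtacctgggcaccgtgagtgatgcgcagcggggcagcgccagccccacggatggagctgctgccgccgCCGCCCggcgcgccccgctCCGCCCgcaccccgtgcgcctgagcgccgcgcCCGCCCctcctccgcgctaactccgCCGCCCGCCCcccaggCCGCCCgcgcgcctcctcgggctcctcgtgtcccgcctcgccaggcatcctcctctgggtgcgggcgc
Efnb1: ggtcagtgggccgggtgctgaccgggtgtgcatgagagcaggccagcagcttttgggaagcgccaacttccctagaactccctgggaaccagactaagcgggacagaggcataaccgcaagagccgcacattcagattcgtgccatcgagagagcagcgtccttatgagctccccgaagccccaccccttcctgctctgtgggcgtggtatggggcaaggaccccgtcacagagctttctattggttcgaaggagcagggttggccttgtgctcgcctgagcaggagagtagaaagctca
Epha2: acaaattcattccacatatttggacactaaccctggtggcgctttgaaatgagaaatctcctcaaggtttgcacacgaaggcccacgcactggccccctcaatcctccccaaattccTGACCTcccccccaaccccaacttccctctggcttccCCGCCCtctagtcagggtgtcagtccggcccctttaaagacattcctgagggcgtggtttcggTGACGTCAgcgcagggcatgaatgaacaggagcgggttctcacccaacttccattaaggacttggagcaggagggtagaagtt

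The Slit3 window holds 6 GC boxes and neither of the other motifs. The Efnb1 window holds none of the 3 motifs, and the Epha2 window holds 1 of each. Entries were found for 51 of the 59 guidance genes, with 65 start windows. AGGTCA occurs in 13.8% of those and in 16.3% of all 32851 windows, and no guidance window holds it repeated in the same direction after a spacer of 5 bases, which 3 of all windows hold (0.00913%). GGGCGG occurs in 75.4% of guidance windows and 35.7% of all, TATAAA (the TATA box) in 3.08% and 13.6%, and TGACGTCA in 1.54% and 1.79%. The guidance windows are also richer in G and C, with a median of 64.3% against 52.7%. A match is a run of letters and says nothing of binding.

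More members passed the test at day 5 without LIF and with RA than at days 1 and 3 without LIF, as did more of all genes. At day 5, 10 of 39 members rose and 4 fell (17% of all genes rose and 15.2% fell, 32.1% in all). At day 1 with RA, 9 rose and 3 fell (11% of all genes rose and 9.84% fell, 20.9% in all), and at day 2 with RA 9 rose and 3 fell (8.62% of all genes rose and 8.26% fell, 16.9% in all). At day 1 without LIF 2 rose and 0 fell (1.2% of all genes rose and 0.998% fell, 2.2% in all). At day 3 without LIF 3 rose and 2 fell (6.82% of all genes rose and 5.67% fell, 12.5% in all). At days 3 and 5 the members' share was near that of all genes. The median change of the 39 on the log2 scale was -0.000711 at day 1, 0.20 at day 3 and 0.22 at day 5 without LIF, and -0.05 at day 1 and 0.25 at day 2 with RA, where that of all genes was within 0.04 of 0 in every comparison. All of these comparisons share the controls. In 5 of the 39 members (Slit3, Efna4, Epha7, Sema3a and Sema6d) the controls alone were under the brightness threshold, so these passed the filter only through arms where they are higher. They make up 2 of the 10 that rose at day 5, 2 of the 9 at day 1 with RA and 3 of the 9 at day 2 with RA.

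Some of these counts rest on single libraries. Without the doubted library, 3 members passed at day 1 without LIF (3.26% of all genes), 9 at day 3 (16.8%), 16 at day 5 (35.3%), 12 at day 1 with RA (24.8%) and 12 at day 2 with RA (20%). At day 1 with RA, 7 passed without the high library of that arm, where 12.9% of all probe sets past the filter were called against 19.5% with it, and 5 when scan day entered as a random block (6.79% of all genes). At day 2 with RA, 4 passed without its medium library and 7 without its low library, while the share of all probe sets fell from 15.2% to 5.72% and 5.81%. At day 1 without LIF, 1 passed without control high replicate 1, where the share of all probe sets fell from 2.06% to 0.302%.

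**Figure D1:**
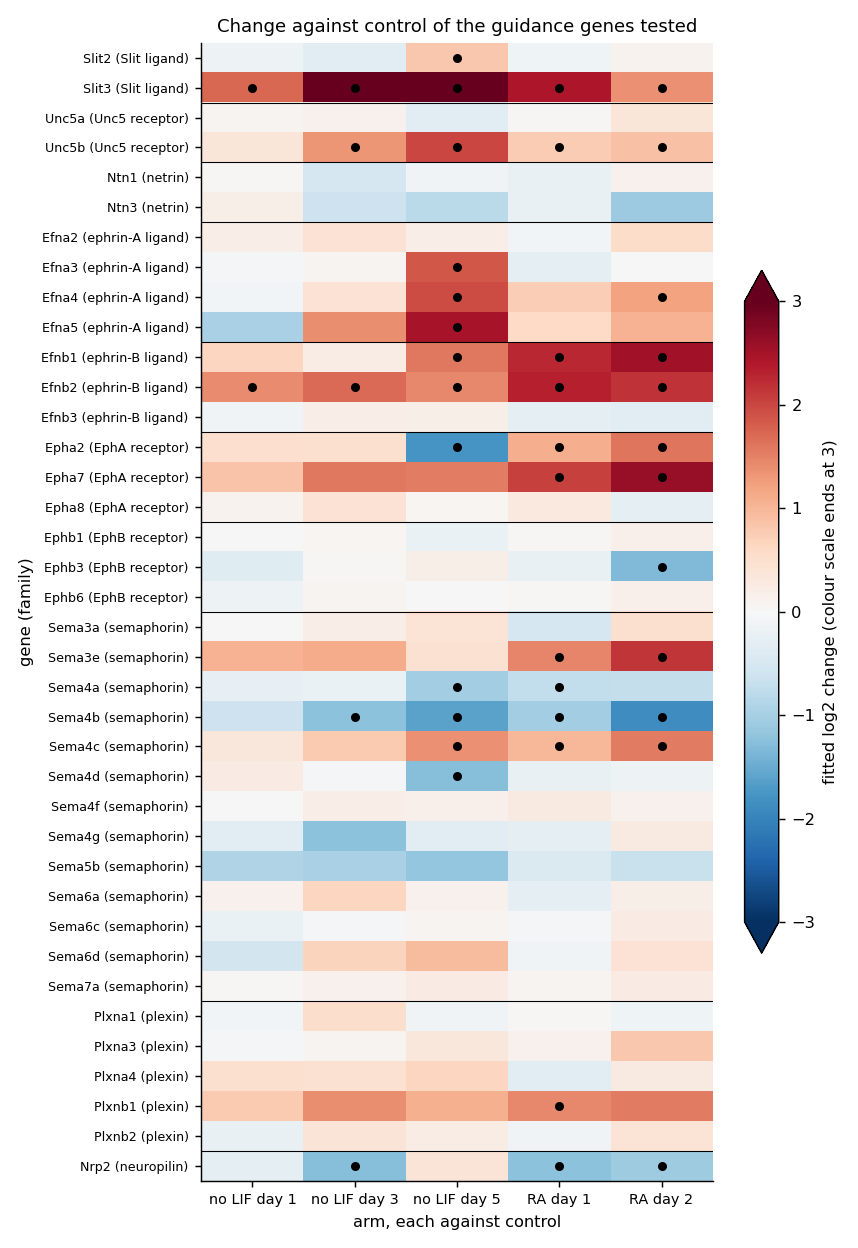
Fitted log2 change against control (colour, blue lower and red higher, scale ending at 3) of the 38 guidance genes past the brightness filter, in rows grouped by family, for each of the 5 other arms in columns. Dots mark changes past the test, and Slit3 and Efnb2 have a dot in every arm.

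Slit3, a secreted ligand of Robo receptors, rose in every arm and had the largest rise of any member at day 5. Its signal was 11.5, 29.1 and 54.3 in controls, 80.9, 149, 115 and 89.2 at day 1 without LIF, 244, 333 and 401 at day 3 and 1038, 1165 and 845 at day 5. These 4 arms did not overlap, and each later day was higher. The change from control was 1.73 ± 0.30 at day 1 (limma adjusted p = 0.0219), 3.22 ± 0.32 at day 3 (limma adjusted p = 0.000209) and 4.85 ± 0.32 at day 5 (limma adjusted p = 1.03e-06). Because the mean control value of 5.11 on the log2(signal + 7) scale was under the chip's threshold, 5.66, the size of these changes depends on the pseudocount. The call at day 1 was lost without the brightness filter, without control high replicate 1, and also under a random block for scan day.

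Slit3 was also above control in both RA arms, which had no LIF either. The signal was 159.9, 248 and 151 at day 1 with RA and 106 and 78.1 (medium, low) at day 2. Both arms lay above all controls, and day 2 lay below day 1. Day 1 with RA lay above every library of day 1 without LIF, and day 2 with RA overlapped them. Slit3 did not pass against day 1 without LIF in either RA arm, the second compared within 1 scan day. The changes from control were 2.43 ± 0.32 (limma adjusted p = 0.000577) and 1.38 ± 0.38 (limma adjusted p = 0.0301). The second call was lost without the brightness filter, without control high replicate 1 or without either library of its arm. The Slit3 probe set carries a suffix for probes shared with other sequences, and it is the only one of Slit3 on these chips, so its signal may include related transcripts.

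Slit2, another Robo ligand, passed against control at day 5 and in no other arm. It was at 81.6, 93.3 and 89.3 in controls and 165, 162 and 151 at day 5 (0.80 ± 0.19, limma adjusted p = 0.00856). The day 5 libraries lay above all others, and the RA libraries lay between 64.6 and 125. Slit1 was under the brightness filter, with signals between 12.6 and 29.6. All 3 Robo receptors measured were under it as well. Robo4, the Robo of endothelium, was the member just outside the filter on chip B, with a mean log2 value of 5.657 against a threshold of 5.662, and lay between 9.55 and 87.7. Robo1 was at 2.71, 40.6 and 23.1 at day 5 and did not exceed 17.9 elsewhere, and Robo3 lay between 5.19 and 23.9.

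Unc5b, a netrin receptor that mediates repulsion, also rose with time without LIF. Its signal was 476, 402 and 507 in controls, 606, 670.4, 538 and 492 at day 1, 1219, 1040 and 1075 at day 3 and 1924, 2012 and 1498 at day 5. Day 1 overlapped the controls, and days 3 and 5 lay above them and apart from each other. The change was 1.32 ± 0.16 at day 3 (limma adjusted p = 0.000569) and 2.02 ± 0.16 at day 5 (limma adjusted p = 3.58e-06), a 4.04-fold rise.

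With RA, Unc5b was at 800.4, 701 and 753 at day 1 and 746 and 827 at day 2, above every control and below every day 3 library. The changes were 0.76 ± 0.16 (limma adjusted p = 0.00653) and 0.88 ± 0.19 (limma adjusted p = 0.00992), the second lost without the low library of its arm. Unc5a, a further netrin receptor, passed in none of the 12 comparisons and lay between 142 and 259. The netrins themselves, Ntn1 and Ntn3, passed in none either. Ntn1 lay between 40.6 and 107 and Ntn3 between 10.2 and 122.

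**Figure D2:**
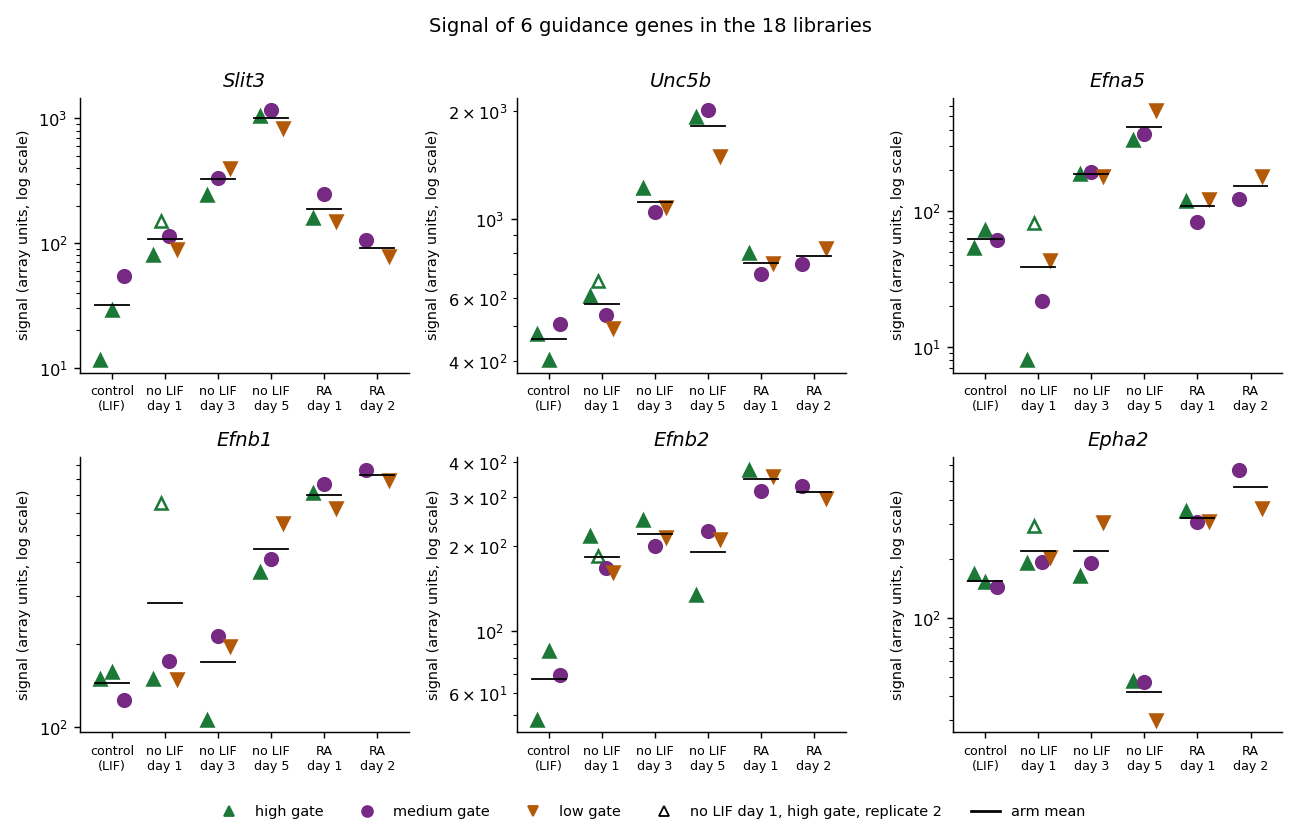
Signal of Slit3, Unc5b, Efna5, Efnb1, Efnb2 and Epha2 (log axes, array units) in the 18 libraries by arm, with a symbol for each gate, an open triangle for the doubted library and a line at the mean of each arm. Slit3 at day 5 lies between 845 and 1165, above every other library, and Epha2 at day 5 between 30.1 and 47.4, below every other library.

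Among A-class ephrins, which are tied to the membrane by a lipid anchor and bind mainly EphA receptors, 3 of the 4 tested rose at day 5 without LIF, when 17% of all genes rose. Efna5 was at 53.5, 73.1 and 62 in controls, 8.03, 82.1, 21.8 and 44 at day 1, 189, 195 and 182 at day 3 and 336, 371 and 555 at day 5. Day 5 lay above every other library and day 3 above all controls, while at day 1 the doubted library was above the controls and the other 3 below them. The change at day 5 was 2.48 ± 0.46 (limma adjusted p = 0.00157). At day 2 with RA it was at 124 and 182, above all controls but not past the test. Without the doubted library, Efna5 also passed as lower at day 1 (-1.51 ± 0.29, limma adjusted p = 0.0301) and as higher at day 3 (1.29 ± 0.29, limma adjusted p = 0.0127).

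Efna4 was at 23, 19.9 and 14.4 in controls and 97.2, 79.95 and 63.1 at day 5 (1.95 ± 0.27, limma adjusted p = 9.77e-05). The mean control value, 4.51 on the log2(signal + 4) scale, was under the chip's threshold, 4.80. Day 5 lay above every other library. It was at 20.9, 27.7, 12.4 and 10.7 at day 1 without LIF and 18.9, 21.9 and 36.6 at day 3, both overlapping the controls, and at 31.4, 28 and 36.5 at day 1 with RA, above them but not past the test. At day 2 with RA it was at 47.3 and 37.9, above all controls (1.21 ± 0.32, limma adjusted p = 0.0172), a call lost without control medium or without the medium library of the arm. Efna3 was at 225, 228 and 279 in controls and 901, 1003 and 924 at day 5 (1.86 ± 0.17, limma adjusted p = 1.25e-05). Day 5 lay above every other library. In the other arms it was at 241, 226, 265 and 225 at day 1 without LIF, 201, 305 and 328 at day 3, 221, 183 and 229 at day 1 with RA and 247 and 287 at day 2 with RA, none past the test. A second Efna3 probe set, on chip A, did not pass at day 5 (0.24, limma adjusted p = 0.423), so the probe sets of this gene disagree. Efna2 passed in no comparison and lay between 21.7 and 59.1. Efna1, Efna3 and Efna4 are consecutive protein-coding genes on chromosome 3, a neighbourhood looked up after the values were seen. Efna1, which is under the filter, was at 4.61, 15.9 and 10.2 in controls and 60.5, 56.4 and 91.8 at day 5, above every other library.

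B-class ephrins cross the membrane and bind mainly EphB receptors. Efnb1 was at 149.7, 159 and 126 in controls, 709, 768 and 627 at day 1 with RA and 864 and 789.8 at day 2 with RA. The RA libraries lay above all controls and above all libraries of days 3 and 5 without LIF. At day 1 without LIF it was at 149.8, 655, 174 and 149.6, so that the doubted library, the second of these, lay among the RA libraries. At day 3 it was at 106, 214 and 197 and at day 5 at 366, 409.6 and 554. Day 3 overlapped the controls and day 5 lay above them.

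Efnb1 changed from control by 2.26 ± 0.46 at day 1 with RA (limma adjusted p = 0.00564), by 2.52 ± 0.54 at day 2 with RA (limma adjusted p = 0.00962) and by 1.58 ± 0.46 at day 5 without LIF (limma adjusted p = 0.0248). The second call was lost without either library of its arm, and the third without control high replicate 1, control medium, day 5 medium or day 5 low. Its chip A probe set passed in the same direction at day 2 with RA (3.71, limma adjusted p = 0.0126) and at day 5 (2.63, limma adjusted p = 0.0181). Against day 3 without LIF, which shared a scan day with day 1 with RA, Efnb1 differed by 2.03 ± 0.24 and missed the threshold (limma adjusted p = 0.0685), while the chip A probe set passed (2.47, limma adjusted p = 0.00975).

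Efnb2, known from arteries and mesoderm, rose in every arm. Controls were at 48.2, 84.4 and 69.8, and libraries without LIF were at 217, 184, 167 and 162 at day 1, 249, 200 and 216 at day 3 and 134, 227 and 213 at day 5. RA libraries were at 374, 314 and 354 at day 1 and 326 and 296 at day 2. Every library without LIF lay above the controls, and every RA library above those. The change was 1.41 ± 0.21 at day 1 without LIF (limma adjusted p = 0.0049), 1.69 ± 0.23 at day 3 (limma adjusted p = 0.00045) and 1.45 ± 0.23 at day 5 (limma adjusted p = 0.000228). With RA it was 2.33 ± 0.23 at day 1 (limma adjusted p = 4.21e-05) and 2.18 ± 0.26 at day 2 (limma adjusted p = 0.000163). With scan day as a fixed block the calls at days 1 and 5 without LIF were lost. Efnb3 lay between 50.1 and 122 and passed in no comparison, but its other probe set passed at day 5 (1.03, limma adjusted p = 0.00218).

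Epha2, a receptor tyrosine kinase for A-class ephrins, fell at day 5 without LIF and rose with RA. It was at 167, 153 and 142 in controls and 47.4, 47.1 and 30.1 at day 5, against 351, 307 and 311 at day 1 with RA and 568 and 361 at day 2 with RA. Day 5 lay below every other library, and the RA libraries lay above every control. The change was -1.78 ± 0.26 at day 5 (limma adjusted p = 0.000139), 1.09 ± 0.26 at day 1 with RA (limma adjusted p = 0.00839) and 1.61 ± 0.30 at day 2 with RA (limma adjusted p = 0.0026). The first call was lost with scan day as a fixed block, the second with it as a random block and the third without the medium library of its arm. Day 1 without LIF was at 189.5, 293, 192 and 204 and day 3 at 162, 189 and 307, neither past the test.

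Epha7, an Eph receptor of the developing nervous system, was at 50.05, 13.9 and 31.3 in controls, 162, 145 and 132 at day 1 with RA and 184 and 270 at day 2 with RA. RA libraries lay above all controls, whose mean of 5.16 on the log2(signal + 7) scale was under the chip's threshold. The changes were 2.06 ± 0.58 (limma adjusted p = 0.0278) and 2.61 ± 0.68 (limma adjusted p = 0.0251). Each call was lost without the brightness filter, without control high replicate 2 or without control medium. Each was also lost without any 1 library of its own RA arm, and the first under a random block for scan day. At day 1 without LIF it was at 18.2, 176, 77 and 39.8, the doubted library being the highest. At day 3 it was at 75.2, 90.4 and 158 and at day 5 at 86.8, 120.5 and 93.2, above all controls but not past the test. Without that library Epha7 also passed at day 3 (1.47 ± 0.41, limma adjusted p = 0.0374) and at day 5 (1.42 ± 0.41, limma adjusted p = 0.024).

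Ephb3, a receptor for B-class ephrins, fell at day 2 with RA. It was at 49.3, 41.7 and 72.5 in controls and 18.9 and 17.3 there, below every other library (-1.32 ± 0.27, limma adjusted p = 0.00402), a call lost without the medium library of that arm. Its signal was 34.9, 28.5, 57.4 and 33.9 at day 1 without LIF, 46, 88.3 and 32.8 at day 3, 67.1, 66.4 and 42.4 at day 5 and 50.1, 45.5 and 32.7 at day 1 with RA, each overlapping the controls. Ephb1, between 328 and 497, Ephb6, between 51.7 and 93, and Epha8, between 26.7 and 70.9, passed in no comparison. Epha3, Epha4, Epha5, Epha6 and Epha10 were under the filter and did not exceed 35.4 in any library.

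Of 13 semaphorins tested, 1 rose and 3 fell at day 5 without LIF, 2 rose and 2 fell at day 1 with RA, and 2 rose and 1 fell at day 2 with RA. At day 5 this share, 4 of 13, was near the 32.1% of all genes, which compares with 20.9% at day 1 with RA and 16.9% at day 2 with RA. Sema4c, a membrane semaphorin that binds Plxnb2, rose in all 3 arms. It was at 95.6, 139 and 130 in controls, 349.9, 319 and 262 at day 5 (1.37 ± 0.28, limma adjusted p = 0.00324), 228, 253 and 231 at day 1 with RA (1.01 ± 0.28, limma adjusted p = 0.026) and 333 and 348 at day 2 with RA (1.55 ± 0.33, limma adjusted p = 0.00893). All 8 of these libraries lay above the controls. Sema3e, a secreted semaphorin that binds Plxnd1 directly, was at 46.5, 60.2 and 57 in controls, 182, 187 and 142 at day 1 with RA (1.47 ± 0.37, limma adjusted p = 0.011) and 274 and 298 at day 2 with RA (2.15 ± 0.43, limma adjusted p = 0.0038). RA libraries lay above all controls, while day 5 without LIF, at 57.2, 95.5 and 101, overlapped them. Sema3e was also above all controls at day 1 without LIF, at 64.9, 224, 116 and 129, and at day 3, at 115, 91.9 and 212, without passing the test. The call at day 1 with RA was lost under a random block for scan day and without the high library of that arm.

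Sema4b, Sema4d and Sema4a, all membrane semaphorins, fell at day 5. Sema4b was at 321, 238 and 391 in controls, 108, 109.7 and 124 at day 5 (-1.61 ± 0.25, limma adjusted p = 0.000207) and 120.3 and 98 at day 2 with RA (-1.85 ± 0.29, limma adjusted p = 0.000855). Both arms lay below all controls. It also fell at day 3 without LIF, where it was at 121, 142 and 192 (-1.23 ± 0.25, limma adjusted p = 0.00533), and at day 1 with RA, at 118, 209.5 and 203 (-1.03 ± 0.25, limma adjusted p = 0.00875). Day 1 without LIF was at 236, 112, 296 and 272, the doubted library being the lowest. The call at day 1 with RA was lost without the gate term, without the high library of that arm, and under a random block for scan day. This probe set shares probes with other sequences. Of the other Sema4b probe sets, 1 passed at day 5 (-0.56, limma adjusted p = 0.0234) and 1 did not (-0.34, limma adjusted p = 0.372), and neither passed at day 3 without LIF, with RA, or at day 5 against day 1. Sema4d, a ligand of Plxnb1, was at 170.4, 250 and 209 in controls and 93.7, 79.9 and 89.7 at day 5, below every other library (-1.27 ± 0.19, limma adjusted p = 0.000156), and at 201 and 200.1 at day 2 with RA. It was at 314, 193, 249 and 284 at day 1 without LIF, 188, 193 and 265 at day 3 and 166, 191 and 204 at day 1 with RA, each overlapping the controls. Sema4a was at 105, 127 and 86.5 in controls and 65.4, 31.1 and 48.3 at day 5 (-1.04 ± 0.21, limma adjusted p = 0.00151). The day 5 libraries lay below all controls. With RA it was at 56.5, 62.7 and 55.3 at day 1 (-0.74 ± 0.21, limma adjusted p = 0.0204) and at 64.6 and 49.2 at day 2, below all controls, the second not past the test. The call at day 1 with RA was lost with scan day as a random block, without control high replicate 2 and without the high library of that arm. Without LIF it was at 90.5, 75.1, 90.7 and 84 at day 1 and 93.4, 91.8 and 74.7 at day 3, both overlapping the controls. Sema3a, Sema4f, Sema4g, Sema5b, Sema6a, Sema6c and Sema7a passed in none of the 12 comparisons.

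Among the co-receptors, Nrp2, a neuropilin of class 3 semaphorins, fell in 3 arms. It was at 109.6, 85.5 and 124 in controls, 48.5, 47.5 and 39.5 at day 3 without LIF (-1.27 ± 0.21, limma adjusted p = 0.00324), 38.4, 55.1 and 46 at day 1 with RA (-1.24 ± 0.21, limma adjusted p = 0.00219) and 49.7 and 70.03 at day 2 with RA (-1.06 ± 0.25, limma adjusted p = 0.0156). These libraries lay below all controls. It was at 67.7, 82.3, 99.5 and 130.1 at day 1 without LIF and at day 5 at 107, 167 and 208, both overlapping the controls. The call at day 2 with RA was lost with scan day as a fixed block, without the gate term, without control medium and without the medium library of that arm. Of 5 plexins tested, only Plxnb1, a receptor of Sema4d, passed against control, at day 1 with RA (1.43 ± 0.42, limma adjusted p = 0.0321). Its controls were at 256, 349 and 54.1, the medium one far below the others, and the RA libraries at 424, 416 and 430.1. Its other probe set passed there too (1.59, limma adjusted p = 0.00495), and also at day 5 without LIF (1.03, limma adjusted p = 0.0309) and day 2 with RA (1.52, limma adjusted p = 0.0174). Plxna1, Plxna3 and Plxna4 passed in no comparison.

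RA and its absence were compared at the same time, day 1. These arms shared no scan day, so treatment and scan day cannot be told apart here. Efnb1, Efna5 and Efnb2 were higher with RA and Nrp2 lower, 4 of 39 members (3.35% of all genes were higher and 3.28% lower, 6.63% in all). Efnb1 was 1.61 ± 0.42 higher on the log2 scale (limma adjusted p = 0.0444), Efna5 1.59 ± 0.42 higher (limma adjusted p = 0.0444) and Efnb2 0.92 ± 0.21 higher (limma adjusted p = 0.0178), while Nrp2 differed by -0.97 ± 0.19 (limma adjusted p = 0.023). The chip A probe set of Efnb1 missed the threshold here (2.24, limma adjusted p = 0.0699). The RA values of Efna5 were 118, 83.7 and 124, above all day 1 libraries without LIF. The number of calls turned on the doubted library. Without it 9 members were higher and 3 lower, where 18.3% of all genes passed, and Efnb1 differed by more (2.10 ± 0.22, limma adjusted p = 0.000114). That library was doubted for its likeness to the RA libraries, so leaving it out tends to widen this difference. The larger change and smaller p-value are therefore no further support. Leaving out any 1 of the other 6 libraries left 0 to 2 calls, with 1% to 2.1% of all probe sets called against 6.52% with every library, and none remained with scan day as a random block (0.0102% of all genes). Against day 3 without LIF within their shared scan day, 0 of 39 members passed limma's test (0.784% of all genes were higher and 0.713% lower, 1.5% in all), and 14 had an unadjusted p under 0.05, as did 23.6% of all genes.

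One scan day held 3 libraries of day 1 without LIF and all of day 5 without LIF and day 2 with RA, so these could be compared on 1 scan day. Day 5 against day 1 gave 13 members higher and 4 lower (18.1% of all genes were higher and 15.5% lower, 33.7% in all), and 11 passed without the medium library of day 5, where the share of all probe sets fell from 30.8% to 18.1%. The largest rises were Efna5 (3.90 ± 0.23, limma adjusted p = 0.000506), Slit3 (3.33 ± 0.15, limma adjusted p = 0.000301) and Efna4 (2.19 ± 0.13, limma adjusted p = 4.59e-05). In the day 1 libraries compared, Efna5 was dim, at 8.03, 21.8 and 44, as was Efna4, at 20.9, 12.4 and 10.7. The size of these 2 changes therefore depends on the pseudocount. The filter used all 18 libraries, so genes dim at day 1 could pass it through arms where they are higher. The largest fall was Epha2 (-2.15 ± 0.18, limma adjusted p = 0.000208). Sema6d, a membrane semaphorin (1.73 ± 0.15, limma adjusted p = 0.0015), and Plxnb2, a receptor of Sema4c (0.55 ± 0.12, limma adjusted p = 0.0121), passed here but in no arm against the controls. The other probe set of each did not pass, at 0.13, limma adjusted p = 0.541 for Sema6d and 0.39, limma adjusted p = 0.0815 for Plxnb2. The probe sets of Sema6d thus disagree, while those of Plxnb2 differ in the call but not in direction. Day 2 with RA against day 1 without LIF gave 9 higher and 3 lower (7.87% of all genes were higher and 6.04% lower, 13.9% in all), led by Efnb1 (2.26 ± 0.21, limma adjusted p = 0.00718), Efna5 (2.19 ± 0.26, limma adjusted p = 0.0105) and Epha7 (2.05 ± 0.39, limma adjusted p = 0.0304). The calls of Efnb1, Efna5 and Epha7 were each lost without either day 2 library, which leaves 1 in that arm. That of Efna5 was also lost without day 1 medium, and that of Epha7 without the brightness filter, day 1 high or day 1 low. Fewer members and fewer probe sets passed when a library was left out. The count was 3 without the medium library of day 2 (3.08% of all probe sets, against 12.5% with every library), 3 without its low library (1.91%), 6 without day 1 low (5.52%) and 5 without day 1 medium (4.65%).

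**Figure D3:**
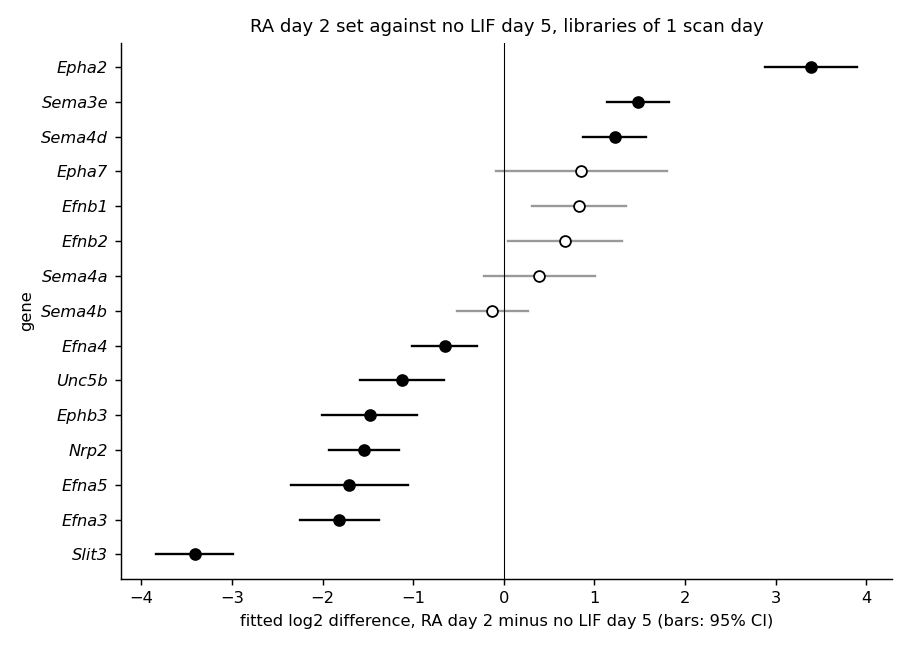
Fitted log2 difference, day 2 with RA minus day 5 without LIF, of the 15 members with values in every library, from the libraries of 1 scan day, with 95% confidence intervals and filled points for differences past the test. Epha2 at 3.39 and Slit3 at -3.41 lie at the ends.

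Day 2 with RA was also set against day 5 without LIF on that scan day, a comparison added after the data were seen, in which treatment and time cannot be told apart. Epha2 (3.39 ± 0.22, limma adjusted p = 0.000296), Sema3e (1.48 ± 0.14, limma adjusted p = 0.00146) and Sema4d (1.22 ± 0.15, limma adjusted p = 0.00311) were higher with RA. Slit3 (-3.41 ± 0.18, limma adjusted p = 0.00346), Efna3, Efna5, Nrp2, Ephb3, Unc5b and Efna4 were lower. These 10 of 39 compare with 3.67% of all genes that were higher and 4.35% lower, 8.02% in all. Epha2 differed 10.5-fold and Slit3 10.6-fold. Without the medium library of day 2, 2 members passed (1.24% of all probe sets, against 7.05% with every library), and without its low library 4 (1.85%). Without day 5 medium 5 passed (2.13%), and without day 5 low 5 (3.29%). The Slit3 call was lost without either day 2 library, as were those of Efna3, Efna5, Nrp2, Unc5b and Efna4. The calls of Ephb3 and Sema4d were lost without the medium library of day 2. Those of Efna3, Efna5, Nrp2, Unc5b and Efna4 were also lost without day 5 medium and without day 5 low. Without the brightness filter Efna5, Unc5b and Efna4 did not pass. The chip A probe set of Efna3 did not pass (-0.27, limma adjusted p = 0.617). The calls of Epha2 and Sema3e were kept when any 1 library of these arms was left out.

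**Figure D4:**
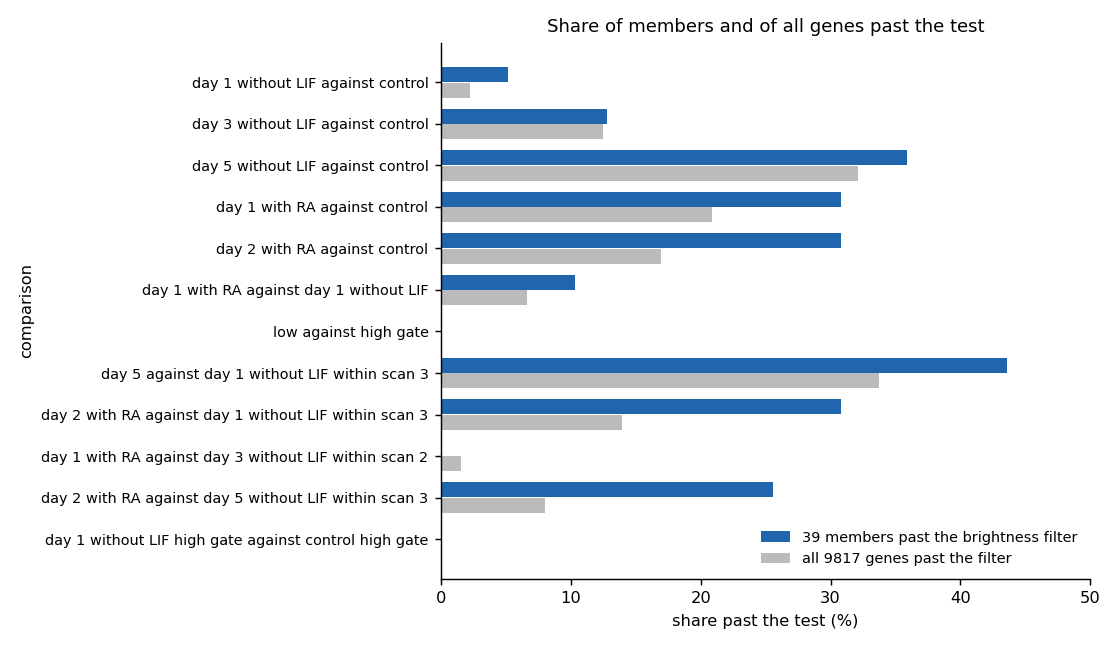
Share of the 39 members (blue) and of the 9817 genes past the brightness filter (grey) past the test in each of the 12 comparisons, on an axis from 0. At day 5 without LIF against control 35.9% of members and 32.1% of genes passed.

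Between the low and the high gate 0 of 39 members passed limma's test (0% of all genes were higher and 0% lower, 0% in all), and 2 had an unadjusted p under 0.05, Nrp2 and Sema4b, both higher in the low gate, a share near the 5.1% of all genes. Between the high gates of day 1 without LIF and control 0 passed limma's test (0% of all genes were higher and 0% lower, 0% in all), and 3 had an unadjusted p under 0.05, against 4.8% of all genes.

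Below the filter lay 21 guidance genes, which were fitted without it. At day 5 without LIF 6 of them passed, all higher. In the same fit 6.09% of all genes under the filter were higher and 2.46% lower, and 11.6% of all genes, bright and dim, were higher. Plxnd1, the receptor of Sema3e, was at 3.79, 4.08 and 2.61 in controls and 35.3, 47 and 66.3 at day 5 (2.68 ± 0.27, limma adjusted p = 1.51e-05). Plxna2, a plexin for semaphorins, was at 31.6, 26.5 and 46.3 and 236, 292 and 249 (2.54 ± 0.38, limma adjusted p = 0.000781). At day 5 both lay above every other library. The others were Efna1 (2.20 ± 0.23, limma adjusted p = 2.42e-05), Nrp1 (2.22 ± 0.59, limma adjusted p = 0.0163), Sema3b (1.74 ± 0.34, limma adjusted p = 0.00257) and Unc5c (1.68 ± 0.45, limma adjusted p = 0.0159). Nrp1, a co-receptor of class 3 semaphorins, was at 14.7, 71.2 and 206 in the high, medium and low gates of day 5 and did not exceed 39.5 elsewhere. Unc5c, a netrin receptor, was at 29.3, 56 and 118 in those gates. Each gate has 1 library there, so this order has no replicate.

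At day 2 with RA, Sema3c and Sema3d, both secreted class 3 semaphorins, passed without the filter (2.93 ± 0.66, limma adjusted p = 0.023, and 2.69 ± 0.55, limma adjusted p = 0.0152). There 2% of genes under the filter were higher and 0.985% lower, and 4.6% of all genes were higher. Sema3c was at 6.81, 3.88 and 7.24 in controls and 119 and 109 at day 2 with RA, but also at 13.5, 66.9 and 139 at day 3 without LIF, which overlaps. Sema3d was at 30.9, 18.6 and 5.91 in controls and 108 and 193 at day 2 with RA, above every other library. The other dim semaphorins, Sema3f, Sema3g, Sema5a and Sema6b, did not exceed 29.9 in any library. The genes that passed are dim in controls, so the size of each change depends on the pseudocount.

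**Figure D5:**
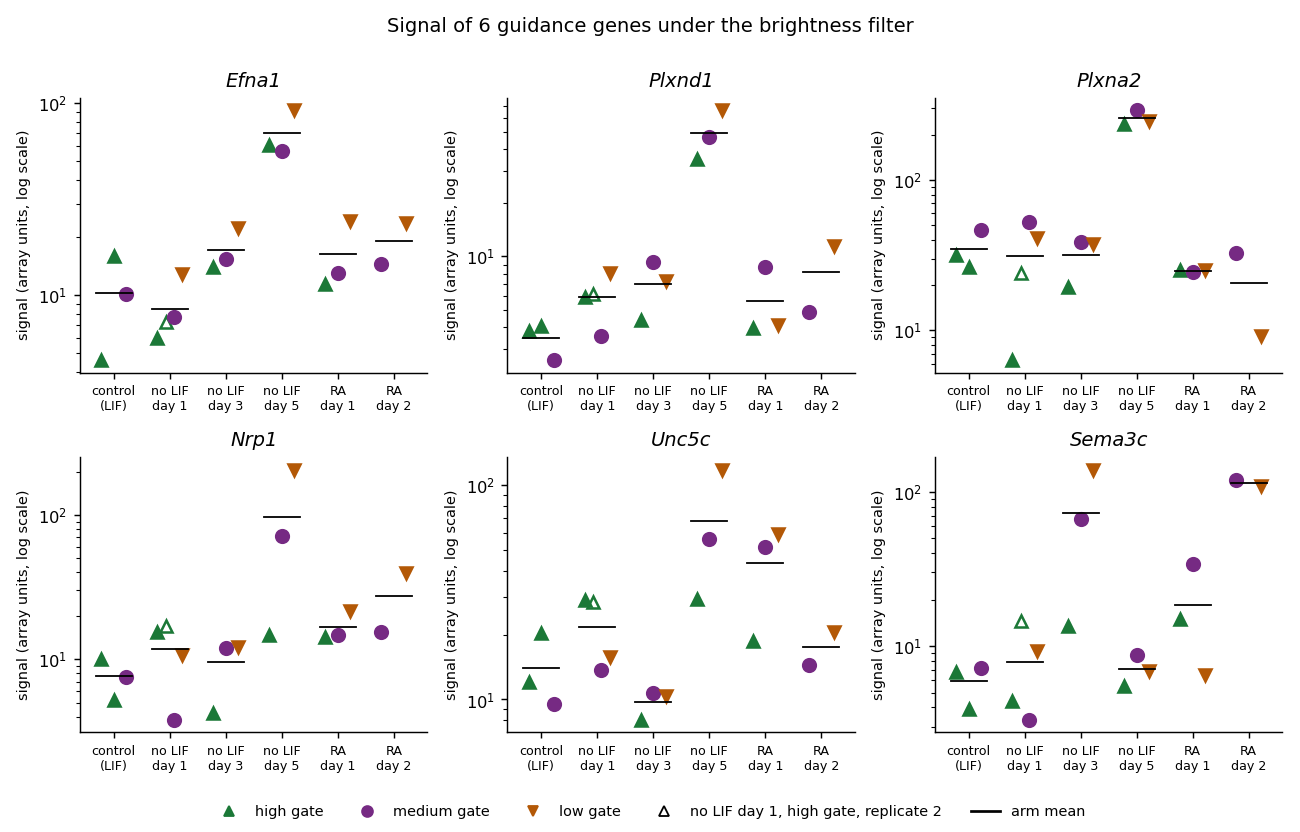
Signal (log axes, array units) of Efna1, Plxnd1, Plxna2, Nrp1, Unc5c and Sema3c, which are under the brightness filter, in the 18 libraries by arm, with a symbol for each gate. Plxnd1 at day 5 lies between 35.3 and 66.3, above every other library.

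Other genes of the guidance pathways (further receptors, relays and cytoskeletal regulators) formed a list of 82, of which 53 were tested. At day 5 without LIF 20 rose and 3 fell, with a median of 0.37 on the log2 scale (17% of all genes rose and 15.2% fell, 32.1% in all), and at day 2 with RA 14 rose and 1 fell, with a median of 0.42 (8.62% of all genes rose and 8.26% fell, 16.9% in all). At day 5 the largest changes were Dpysl5, a relay of semaphorin signals (2.35 ± 0.41, limma adjusted p = 0.00106), Farp1, an exchange factor that binds plexins (2.05 ± 0.58, limma adjusted p = 0.0213), Trio, a regulator of axon growth (1.92 ± 0.37, limma adjusted p = 0.00225), and Enah, an actin regulator (-1.69 ± 0.22, limma adjusted p = 0.000135). At day 2 with RA they were Met, the receptor of hepatocyte growth factor (2.51 ± 0.75, limma adjusted p = 0.0443), Trio (2.25 ± 0.43, limma adjusted p = 0.00545), Fyn, a Src family kinase (2.03 ± 0.23, limma adjusted p = 9.58e-05), and Dpysl2 (1.74 ± 0.50, limma adjusted p = 0.0371). At day 1 with RA against day 1 without LIF 5 were higher and 0 lower (3.35% of all genes were higher and 3.28% lower, 6.63% in all), led by Trio (1.47 ± 0.34, limma adjusted p = 0.0301) and Grb10, an adaptor of receptor kinases (1.19 ± 0.26, limma adjusted p = 0.0157). None of the 5 remained with scan day as a random block, while 17 were higher and 1 lower without the doubted library (18.3% of all genes). Between the gates 0 passed limma's test.

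Markers of other cell types moved beside these results, and their part in them was not tested. In bulk RNA fewer cells of a type and less RNA per cell cannot be told apart. For the marker counts against control, 17% of all genes rose and 15.2% fell at day 5, and 6.82% and 5.67% at day 3. With RA 11% rose and 9.84% fell at day 1, and 8.62% and 8.26% at day 2. Of 10 markers of undifferentiated cells, 9 fell at day 5, 9 at day 2 with RA, and 6 each at day 3 without LIF and day 1 with RA. Their summed signal was 18450 to 22510 in controls, 11010 to 12270 at day 3, 3775 to 3960 at day 5, 11780 to 13230 at day 1 with RA and 8169 to 10160 at day 2 with RA. Of the feeder fibroblast list 6 of 9 tested rose at day 5 and 3 at day 3, while 2 rose and 1 fell at each of days 1 and 2 with RA. The summed signal of its 14 genes was 661 to 904 in controls, 1475 to 1583 at day 3, 2081 to 2217 at day 5, 1262 to 1462 at day 1 with RA and 1890 to 2676 at day 2 with RA. Tagln, of smooth muscle and fibroblasts, made up much of the rise, at 33, 60.4 and 40.1 in controls, 781, 731 and 584 at day 5 and 961 and 1515 at day 2 with RA. The sum of the other 13 was 628 to 844, 1301 to 1564 and 929 to 1161, and Thy1 was at 41.2, 61 and 55.9 in controls and 17.2 and 4.91 at day 2 with RA. Dcn, a proteoglycan of fibroblast matrix, was at 4.95, 14.5 and 19.9 in controls, 156, 160.3 and 152 at day 5, 157, 93 and 98.3 at day 1 with RA and 188 and 285 at day 2 with RA. These 3 arms lay above all controls. Of its defining genes, Col3a1 did not exceed 18.8 and Postn 15.8 in any library, while Col1a1 was at 66.9, 76.7 and 76.8 in controls and 114, 143 and 190.2 at day 5. Of the primitive streak and mesoderm list 6 of 7 tested rose at day 5, and 1 each at day 3, day 1 with RA and day 2 with RA. The sum of 10 genes was 276 to 371 in controls, 434 to 524 at day 3, 1935 to 2592 at day 5, 294 to 372 at day 1 with RA and 421 to 543 at day 2 with RA.

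The shares of all genes given for the lists above apply to the next ones too. Of 11 extraembryonic endoderm markers tested, 5 rose and 1 fell at day 5, and 5 rose at day 2 with RA. At day 3, 1 rose and 1 fell, and 1 rose and 2 fell at day 1 with RA. The sum of 12 genes was 722 to 852 in controls, 806 to 1720 at day 3, 1173 to 1639 at day 5, 789.5 to 922 at day 1 with RA and 1690 to 2984 at day 2 with RA. Of 7 neural progenitor markers 3 rose and 1 fell at day 5, 3 rose at day 3, 4 at day 1 with RA and 3 at day 2 with RA. The sum of 10 genes was 517 to 956 in controls, 1193 to 1277 at day 3, 1530 to 1644 at day 5, 1618 to 1979 at day 1 with RA and 1718 to 1886 at day 2 with RA. Sox11 made up much of it, at 208, 499 and 207 in controls, 813, 676 and 898 at day 5 and 1177, 1316 and 997 at day 1 with RA. At day 5 Notch1, Nes and Fabp7 also lay above all controls. Sox1, at 9.14, 19.8 and 25.55, and Pax6, at 6.52, 11.6 and 10.2, lay below all controls there. With RA, Pax6 was at 79.1, 68.4 and 64.8 at day 1 and 41.4 and 42.9 at day 2, above its controls (11.8, 33.25 and 14.25). Sox1 overlapped its controls (30.7, 44.8 and 39.3) at day 1 with RA, at 37.7, 38.05 and 35.2. At day 2 with RA it lay above them, at 48.6 and 50.8. Of 11 neuronal markers 1 rose and 5 fell at day 5, and 2 rose and 1 fell at day 3. With RA 1 rose and 2 fell at day 1, and 2 rose and 3 fell at day 2. The sum of 14 genes was 2723 to 3004 in controls, 2717 to 3345 at day 3, 1914 to 2170 at day 5, 2563 to 2929 at day 1 with RA and 2594 to 2756 at day 2 with RA. Dcx, of early neurons, did not exceed 23.2. Of the endothelial list 0 of 2 tested passed limma's test against control, and the sum of 8 genes was 161 to 263 in controls, 238 to 315 at day 5 and 226 to 259.9 at day 1 with RA. Members under the filter moved in both directions at day 5. Flt1 was at 20.7, 21.3 and 25.2 in controls and 72.4, 62.05 and 98.3 at day 5. Kdr was at 9.05, 29.35 and 19 in controls and 34.8, 64 and 66.4 at day 5. Tek was at 12.4, 16.3 and 11.3 in controls and 5.42, 10 and 2.43 at day 5.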

How the data were processed

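RNA of 18 libraries was measured on chips A (MG_U74Av2) and B (MG_U74Bv2). The deposited values are signal intensities on a linear scale from MAS5, per the submitters' processing notes (version not given in the sources used here). They appear scaled within each array, since the mean after trimming 2% at each end is 150.04 to 150.1 on every array. Depth is not a property of arrays, and their number limits precision. From these intensities log2(intensity + 4) on chip A and log2(intensity + 7) on chip B were computed, each pseudocount being 0.1 of the chip median. The 60% brightest probe sets per chip were kept. They were fitted with limma 3.58.1 in R 4.3.3 (lmFit and eBayes, arm plus gate, 18 libraries), with Benjamini-Hochberg adjustment per chip and a threshold of 0.05. Comparisons within a scan day used that day's libraries. The fit was tested on simulated data.

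Every member is named with its family. Values in every library are given for Slit3, Efnb1, and up to 4 largest rises and 4 largest falls past the test in 5 comparisons (day 5 and day 2 with RA against control, RA against none at day 1, the gates, and day 5 against day 1), with values for their family members. Slit2, Sema4c, Plxnb1 and the genes under the filter were detailed as family members after their values were seen. Members and lists were chosen with earlier results of these data known. Where a gene has several probe sets, the brightest was used. The same replicate number in the high gates of control and day 1 without LIF marks no shared source in the labels. Alternatives changed the pseudocount, filter, normalization (quantile), gate term, scan day block, probe set and libraries.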

Additional observations from a re-analysis of the deposited data

Results flagged for a closer look

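One value of the members given in every library lay far from its arm. In day 1 without LIF, Efnb1 in the doubted library (high gate, replicate 2) was at 655.1, while the other 3 libraries lay between 149.6 and 174. Its gap to the nearest of them was 0.898 of the range of the arm, above Dixon's 95% critical value for 4 samples. The test was run on 15 members in this arm, and chance flags about 1 in 20 groups.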

How the results depend on the processing

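Of 74 changes of the 15 members past the test, 33 kept direction and call under each alternative run, 41 lost the call under 1 or more, and 0 reversed. Another 106 of their values were not past the test. Of these, 28 changed sign under some alternative, none of them past the test with the opposite sign, and 26 passed under some alternative. Counts of members that moved by over 1.5 times follow, and in each the cause was not tested except where libraries were left out. Shares of all genes stand beside some of them, and each moved the same way as the count. The other counts stand without that share and are no result about the members in particular. At day 1 without LIF (2 members) the count was 1 without the brightness filter, 4 with scan day as a fixed block, 1 with it as a random block, and 1 with the random block and without the doubted library. At day 3 without LIF (5) it was 9 without the doubted library (16.8% of all genes, against 12.5% with it). At day 1 with RA (12) it was 5 with the random block (6.79% of all genes, against 20.9% without the block). For RA against none at day 1 (4) it was 1 without the filter, 0 with the random block and 12 without the doubted library. The share of all genes there was 6.63%, and it was 0.0102% with the random block and 18.3% without the doubted library. Within scan day 2 (0 by limma, 14 at an unadjusted p under 0.05) it was 2 with a larger pseudocount, 2 without the gate term and 1 with chip A's probe set first. The random block without the doubted library, both alternatives for the other pathway genes and the fibroblast sum without Tagln were added after the data were seen. A fixed scan day block could not be fitted for day 3 without LIF, day 1 with RA, or RA against none at day 1.

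Leaving out 1 library of the 2 arms compared at a time gave 1 to 3 members at day 1 without LIF, 5 to 7 at day 3, 11 to 15 at day 5, 7 to 11 at day 1 with RA and 4 to 12 at day 2 with RA. The doubted library is outside those arms except at day 1 without LIF. Without it the counts were 9 at day 3 (16.8% of all genes) and 16 at day 5 (35.3%). They were 12 at day 1 with RA (24.8%) and 12 at day 2 with RA (20%). The ranges in this paragraph stand without the share of all genes, so they are no result about the members in particular. Left out in the same way, single libraries gave 0 to 12 for RA against none at day 1, 0 to 0 between gates and 0 to 3 between the high gates. Within scan days it gave 11 to 14 for day 5 against day 1, 3 to 10 for day 2 with RA against day 1, 2 to 8 for day 2 with RA against day 5, and 0 to 0 for day 1 with RA against day 3. A replicate block on the 2 pairs of high-gate libraries gave 0 members, as did the fit without it. Deviations of same-numbered libraries correlated at 0.173 on chip A and 0.115 on chip B, and 2 pairs do not show that the numbers pair libraries. Dim genes, those under the filter, limit what can be read from Robo receptors and most EphA receptors.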
